A study of Cricetulus griseus with 6 samples.

Results

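The genes of cholesterol and fatty acid synthesis were examined in CHO-T cells after silencing of *Xbp1*. They comprised the regulators of the SREBP transcription factors, the enzymes of the mevalonate, sterol and fatty acid pathways, and carriers of sterols, and were chosen by symbol from a list of 35 genes. Of these, 31 were found by symbol among the 27873 entries of the files. *Fads2*, the delta-6 desaturase, was listed at 0 in all 6 libraries, which left 30 genes that could be tested. *Acat2*, *Sqle*, *Acly* and *Fads1* were not found by symbol. *Sqle* and *Acly* were found under LOC numbers by their RefSeq gene IDs, and their values are given beside those of the 30 genes but are not counted with them.

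CHO-T is a line of Chinese hamster ovary (CHO) cells made to express mouse T-cadherin (*Cdh13*) stably from a retrovirus, and all libraries came from this 1 line. Both groups were grown with 10% serum and taken 48 h after transfection, with a negative control siRNA in 3 libraries and with 1 *Xbp1* siRNA in the other 3. The labels do not say whether the libraries came from separate cultures, so p-values measure the spread between these libraries. The authors deposited FPKM, read fragments scaled to the length of the transcript and to the mapped fragments of the library. The log2 of FPKM + 0.1 was fitted in limma over 14361 entries with a mean FPKM of at least 0.1. This scale understates the change of weakly expressed genes.

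SREBPs are made as precursors in the membrane of the endoplasmic reticulum, where they are bound to Scap. When sterols are scarce, Scap carries them to the Golgi, where proteases release the part that enters the nucleus. When sterols are abundant, Insig proteins hold Scap back. SREBP2 mainly drives sterol synthesis and sterol uptake, and SREBP1 mainly drives fatty acid synthesis. XBP1 is a transcription factor of the unfolded protein response, known for inducing chaperones and secretory pathway genes and, in liver, for its part in the expression of lipogenic genes. Serum supplies cells in culture with lipoprotein cholesterol.

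The silenced gene was checked first. *Xbp1* had 26.0, 26.2 and 28.4 FPKM with control siRNA and 2.18, 2.11 and 1.39 FPKM after its silencing, −3.78 on the log2 scale, with a standard error of 0.16. *Cdh13* fell from 85.2 ± 0.478 to 32.9 ± 0.476 FPKM (SD, n = 3 each). The FPKM of a library summed to between 646651 and 666267 with control siRNA and to between 593487 and 600986 with *Xbp1* siRNA, with no overlap, while the median log2 fold change over all entries was 0.0063, and the relative depth read from the steps of low values lay between 94.0% and 116% of that of control replicate 1. Of 7 ovarian markers 5 were found. *Amh* (2.69 ± 0.564 and 2.95 ± 0.602 FPKM with control and *Xbp1* siRNA), *Inha* (2.63 ± 0.769 and 3.52 ± 0.684 FPKM) and *Star* (0.822 ± 0.0914 and 1.07 ± 0.236 FPKM) were low and did not pass the test, *Nr5a1* was under the filter and *Fshr* was at 0. Of 4 mesenchymal markers, *S100a6* fell from 1794 ± 64.8 to 832 ± 5.70 FPKM and *Vim* from 377 ± 10.7 to 304 ± 13.2 FPKM, *Fn1* rose from 13.1 ± 0.432 to 23.3 ± 0.123 FPKM, and *Tagln* did not pass. Of 4 epithelial markers *Krt18* was at 0, and 2 could be tested and both rose. The summed level was 1.83 to 2.16 FPKM with control siRNA and 4.59 to 5.79 FPKM with *Xbp1* siRNA, almost all of it *Epcam*. *Cdh1* was near the floor, at 8, 1 and 5 reads under control siRNA and 13, 14 and 23 under *Xbp1* siRNA (adjusted p = 0.0489). Of 4 leukocyte markers, *Cd68*, a lysosomal protein abundant in macrophages, rose from 5.62 ± 0.494 to 7.79 ± 0.919 FPKM (adjusted p = 0.0142), while *Ptprc* and *Cd3e* were at 0. The 4 endothelial markers summed to at most 0.412 FPKM in a library, and the 6 adipocyte and hepatocyte markers, mostly *Alb*, to at most 1.56 FPKM. None of these passed the test. The part of these shifts in the results below was not tested, and fewer cells of one kind and less RNA per cell cannot be told apart in bulk RNA.

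The pathway did not move as a block. Within the mevalonate pathway *Hmgcs1* rose and *Idi1* fell, and the changes of all but 2 genes were under the fold limit. *Tm7sf2*, a sterol reductase, rose to 235% of its control level and *Idi1*, the isomerase that makes dimethylallyl diphosphate, fell to 42.2%. These were the 2 genes past both an adjusted p of 0.05 and a log2 fold change of 1, so that 1 of 30 (3.33%) was higher and 1 of 30 (3.33%) was lower. Among all entries tested, 2.69% were higher and 2.50% lower by this rule. By adjusted p alone, 7 genes rose (23.3%) and 9 fell (30%), and among all entries tested 20.2% were higher and 20.2% were lower. Without control replicate 2, 6 genes rose and 5 fell. Libraries of the 2 conditions did not overlap in 19 of the 30 genes (63.3%), compared with 51.8% of all entries tested. The median log2 fold change of the 30 genes was −0.04, and that of all entries was 0.0063. These shares lie near those of all entries, so the results below concern single genes and not the list.

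**Figure D1:**
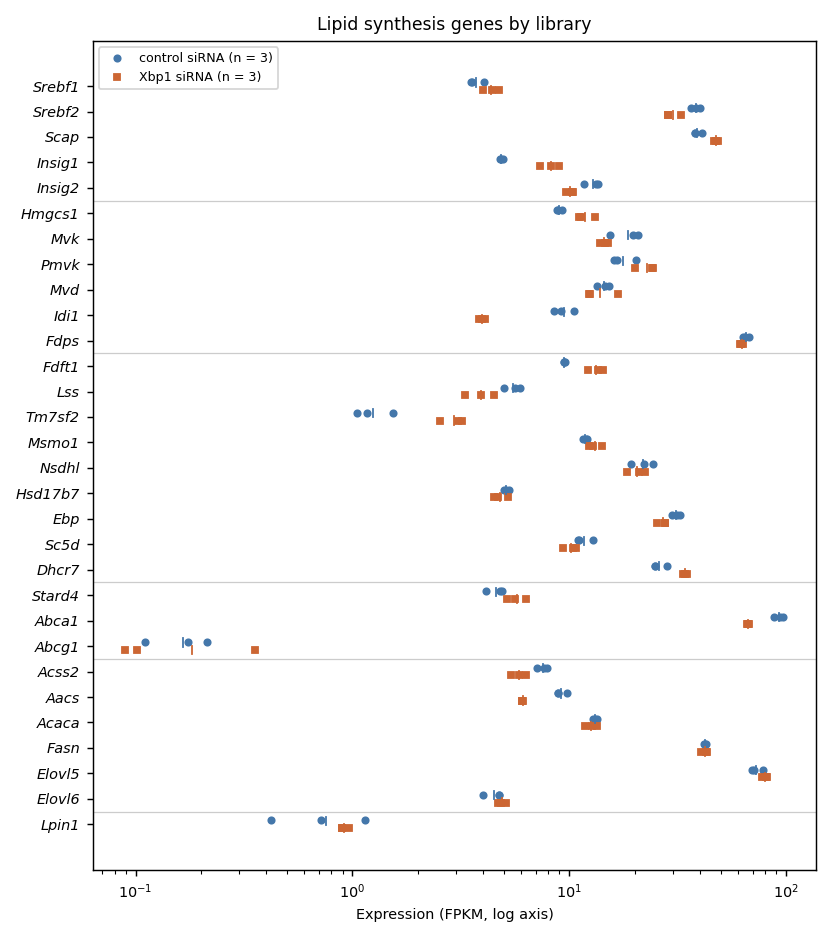
Expression of the 30 tested genes in every library, in FPKM on a log axis, with a line between groups of genes by role. Circles are control siRNA libraries, squares are *Xbp1* siRNA libraries (n = 3 each) and short bars are means. *Idi1* and *Tm7sf2* show the widest gaps between conditions among genes whose libraries do not overlap, and *Abcg1* and *Lpin1* show the widest scatter.

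Among the regulators, the 2 Insigs moved in opposite directions. *Insig1*, which holds Scap in the endoplasmic reticulum and is itself a classical SREBP target, had 4.78, 4.86 and 4.96 FPKM with control siRNA and 7.35, 9.0 and 8.26 FPKM with *Xbp1* siRNA. Every *Xbp1* siRNA library was above every control library, with a log2 fold change of 0.74 (standard error 0.10, adjusted p = 0.000772), the largest among the regulators. *Insig1* stood on 113, 108 and 115 reads under control siRNA and on 178, 209 and 227 reads under *Xbp1* siRNA.

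*Insig2*, which acts on Scap in the same way, had 13.2, 11.7 and 13.6 FPKM with control siRNA and 10.3, 9.63 and 10.4 FPKM with *Xbp1* siRNA. Here every *Xbp1* siRNA library was lower, with a log2 fold change of −0.34 (adjusted p = 0.0107). The ratio of *Insig1* to *Insig2* within a library was therefore 0.380 ± 0.0302 with control siRNA and 0.814 ± 0.113 with *Xbp1* siRNA (SD, n = 3 each), 2.14 times as high. A ratio within a library does not depend on the scaling of that library. For this ratio, and for each of the 6 other ratios given below, the exact two-sided permutation test gave p = 0.1, the smallest that 3 libraries against 3 allow. In all pairs but *Srebf1* to *Srebf2* and *Idi1* to *Fdps*, both genes had no overlap and moved in opposite directions. Ratios of such pairs could not overlap, so their p was fixed in advance and adds nothing to the single genes. The pairs were chosen after their values were seen.

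*Scap*, the escort of the SREBP precursors, rose from 38.9 ± 1.64 to 47.7 ± 1.05 FPKM (log2 fold change 0.29, adjusted p = 0.00166). *Srebf2*, which encodes SREBP2, had 38.3, 39.9 and 36.6 FPKM with control siRNA and 32.7, 28.7 and 28.5 FPKM with *Xbp1* siRNA, and fell by 0.35 on the log2 scale (adjusted p = 0.00403). *Srebf1*, which encodes SREBP1, had 3.51, 3.57 and 4.05 FPKM with control siRNA and 4.72, 4.01 and 4.39 FPKM with *Xbp1* siRNA. These libraries overlapped and the log2 fold change of 0.23 (95% interval −0.03 to 0.50) did not pass the test. The ratio of *Srebf1* to *Srebf2* was 0.0972 ± 0.0117 with control siRNA and 0.146 ± 0.00703 with *Xbp1* siRNA (SD, n = 3 each).

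In the mevalonate pathway, 2 of 6 genes rose (33.3%), 2 fell (33.3%) and 2 did not pass the test. Over all entries tested, 20.2% were higher and 20.2% lower. *Idi1* was the gene past both limits. Its product converts isopentenyl diphosphate to dimethylallyl diphosphate, the primer from which longer isoprenoids are built. *Idi1* had 8.54, 9.20 and 10.5 FPKM with control siRNA and 3.95, 4.10 and 3.85 FPKM with *Xbp1* siRNA. The lowest control library was above 2 times the highest *Xbp1* siRNA library, and *Idi1* fell by 1.22 on the log2 scale (standard error 0.10, 95% interval of the change −1.45 to −0.99, adjusted p = 7.73e-05). Whole read numbers could not be recovered for *Idi1*.

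*Hmgcs1*, the cytosolic HMG-CoA synthase at the entry of the pathway, rose from 8.79, 9.22 and 8.89 to 11.1, 13.1 and 11.3 FPKM (log2 fold change 0.39, adjusted p = 0.00653). *Fdps*, the farnesyl diphosphate synthase that uses the product of *Idi1*, had 65.4 ± 2.14 FPKM with control siRNA and 62.3 ± 1.03 FPKM with *Xbp1* siRNA. Its log2 fold change of −0.07 (95% interval −0.16 to 0.02) did not pass the test. *Hmgcs1* was thus 0.960 ± 0.0978 times the level of *Idi1* with control siRNA and 2.98 ± 0.187 times with *Xbp1* siRNA, and the ratio of *Idi1* to *Fdps* went from 0.144 ± 0.0154 to 0.0637 ± 0.00301 (SD, n = 3 each).

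The kinases of the pathway were nearer to the limit of the test. *Mvk*, mevalonate kinase, had 20.8, 19.6 and 15.4 FPKM with control siRNA and 13.9, 14.7 and 15.1 FPKM with *Xbp1* siRNA (log2 fold change −0.34, adjusted p = 0.0428). The lowest control library lay just above the highest *Xbp1* siRNA library, and the call was lost in 9 of 14 alternatives. Among these were the replicate block (adjusted p = 0.0628) and the fits without control replicate 1 or 2 (0.119 and 0.125) or without *Xbp1* siRNA replicate 1, 2 or 3 (0.118, 0.0907 and 0.0778). *Pmvk*, the next kinase, had 20.3, 16.5 and 16.1 FPKM with control siRNA and 24.4, 24.0 and 20.0 FPKM with *Xbp1* siRNA (log2 fold change 0.37, adjusted p = 0.0312). Its libraries overlapped, and the call was lost without control replicate 2 or 3 (adjusted p = 0.0953 and 0.0944), without *Xbp1* siRNA replicate 1 or 2 (0.0979 and 0.095), and without the intensity trend (0.0739). *Mvd*, the decarboxylase that makes isopentenyl diphosphate, had 14.4 ± 0.927 and 13.9 ± 2.57 FPKM (SD, n = 3 each, log2 fold change −0.07, 95% interval −0.36 to 0.23), and its sign turned without *Xbp1* siRNA replicate 2 or 3 (log2 fold change 0.0073 and 0.0022).

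**Figure D2:**
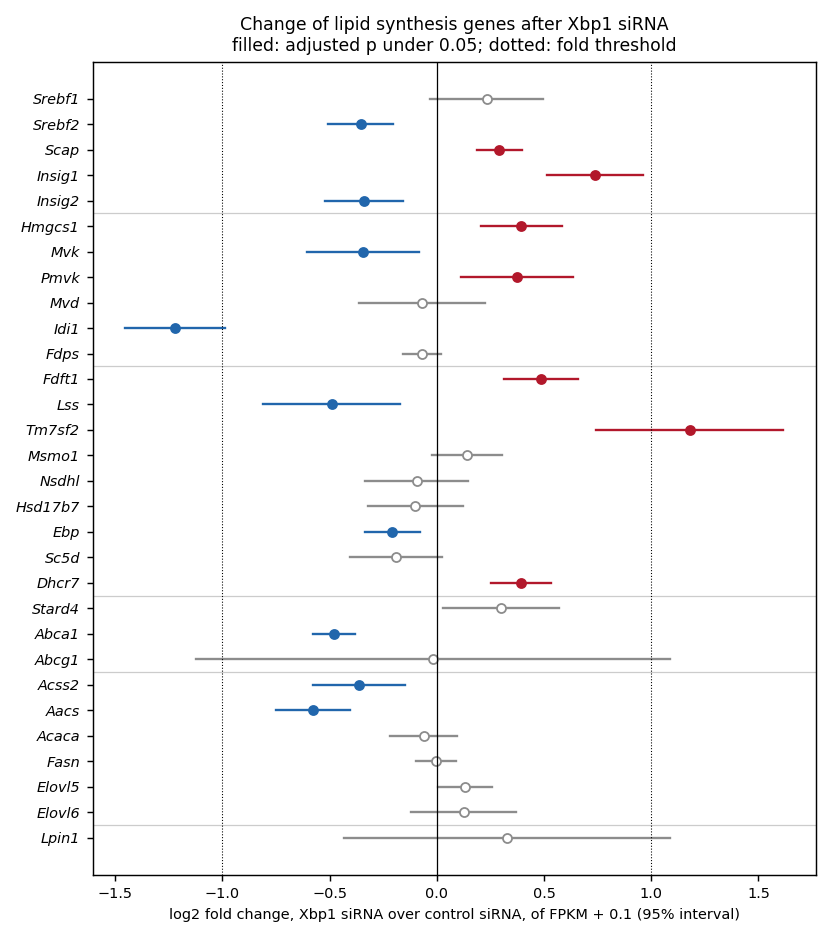
Log2 fold change of the 30 genes after *Xbp1* siRNA (x axis, log2 of FPKM + 0.1) with 95% intervals from limma, ordered by role. Filled points have an adjusted p under 0.05 (red higher, blue lower), and open grey points do not. *Tm7sf2* at 1.18 and *Idi1* at −1.22 lie outside the dotted fold limits, and both colours occur among the regulators, the mevalonate genes and the sterol genes.

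Of 9 genes of the steps from farnesyl diphosphate to cholesterol, 3 were higher (33.3%), 2 lower (22.2%) and 4 not past the test. The shares over all entries tested were 20.2% higher and 20.2% lower. *Fdft1*, squalene synthase, had 9.51, 9.42 and 9.50 FPKM with control siRNA and 12.2, 14.3 and 13.5 FPKM with *Xbp1* siRNA. The control libraries had an SD of 0.0487 FPKM, and all *Xbp1* siRNA libraries were higher (log2 fold change 0.49, adjusted p = 0.00155). *Sqle*, squalene epoxidase, the next enzyme, found under its LOC number, rose from 100 ± 2.45 to 126 ± 0.658 FPKM (log2 fold change 0.32, adjusted p = 0.000206). *Lss*, lanosterol synthase, which closes the sterol rings from the product of *Sqle*, went the other way. It had 5.61, 5.91 and 4.99 FPKM with control siRNA and 4.52, 3.31 and 3.92 FPKM with *Xbp1* siRNA (log2 fold change −0.49, adjusted p = 0.0238). The libraries did not overlap, but the call of *Lss* was lost without control replicate 1 or 2 (adjusted p = 0.0641 and 0.0786) and without *Xbp1* siRNA replicate 2 or 3 (0.0633 and 0.0617). The ratio of *Fdft1* to *Lss* was 1.73 ± 0.157 with control siRNA and 3.49 ± 0.802 with *Xbp1* siRNA (SD, n = 3 each).

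*Tm7sf2* encodes the sterol reductase that follows demethylation of lanosterol, a step that the lamin B receptor, encoded by *Lbr*, can also carry out. *Tm7sf2* had 1.54, 1.17 and 1.05 FPKM with control siRNA and 3.07, 2.53 and 3.21 FPKM with *Xbp1* siRNA. It was a weakly expressed gene, counted at 21, 15 and 14 reads under control siRNA and at 43, 34 and 51 reads under *Xbp1* siRNA. All *Xbp1* siRNA libraries were higher, with a log2 fold change of 1.18 (standard error 0.19, 95% interval 0.74 to 1.62, adjusted p = 0.00194). With a pseudocount of 1 the log2 fold change was 0.81 (adjusted p = 0.00172), which is under the fold limit. *Lbr* was far more abundant and fell from 41.8, 44.3 and 46.0 to 26.7, 27.2 and 24.7 FPKM (log2 fold change −0.75, adjusted p = 5.77e-05). *Tm7sf2* thus stood at 0.0286 ± 0.00729 times the level of *Lbr* with control siRNA and at 0.113 ± 0.0185 times with *Xbp1* siRNA (SD, n = 3 each), a rise of 3.94 times in the ratio, with *Lbr* still the more abundant of the pair in every library.

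Among *Msmo1*, *Nsdhl*, *Hsd17b7*, *Ebp* and *Sc5d*, only *Ebp* passed the test. *Msmo1*, *Nsdhl* and *Hsd17b7*, which together remove the methyl groups at the fourth carbon, had log2 fold changes of 0.14, −0.09 and −0.10, and none passed the test. *Ebp*, the sterol isomerase, fell from 31.2 ± 1.35 to 27.0 ± 1.27 FPKM (SD, n = 3 each, adjusted p = 0.0196), a call that was lost under quantile normalization (adjusted p = 0.0525) and without control replicate 2 (0.0683) or *Xbp1* siRNA replicate 2 (0.0601). *Sc5d*, the desaturase that acts after *Ebp*, had 11.7 ± 1.10 and 10.2 ± 0.754 FPKM and did not pass (adjusted p = 0.142).

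The last reductase was higher. *Dhcr7*, which makes cholesterol from its immediate precursor, had 25.0, 24.9 and 28.3 FPKM with control siRNA and 35.0, 34.0 and 33.6 FPKM with *Xbp1* siRNA, with no overlap (log2 fold change 0.39, adjusted p = 0.00168).

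**Figure D3:**
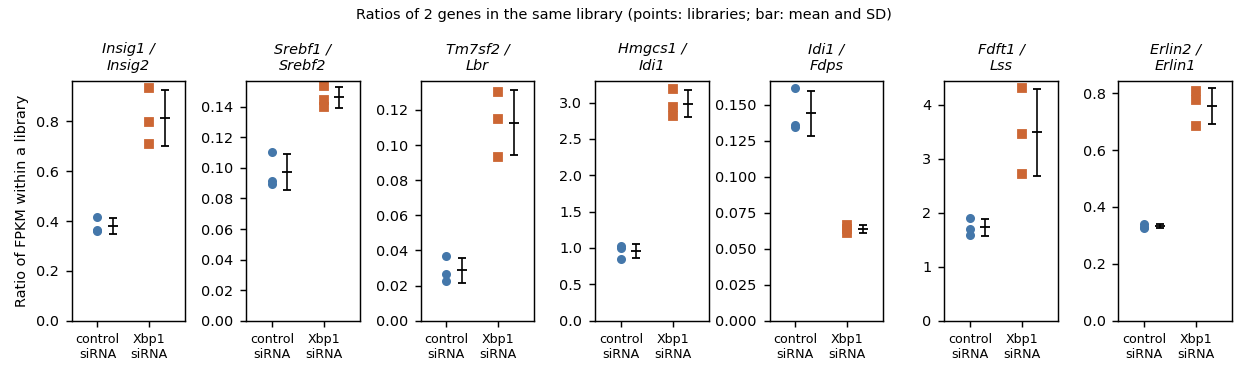
Ratios of the FPKM of 2 genes within each library (y axis, from 0), for control siRNA (circles) and *Xbp1* siRNA (squares), with the mean and SD (n = 3) beside the points. In all 7 pairs the libraries of the 2 conditions do not overlap, and as a fold the largest shift is that of *Tm7sf2* over *Lbr*, 3.94 times, from 0.0286 to 0.113. Where both genes of a pair had no overlap and moved in opposite directions, the ratio could not overlap. The pairs were chosen after their values were seen.

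Of the sterol carriers, *Abca1* fell. It encodes the exporter that loads cellular cholesterol onto apolipoproteins and is a textbook target of the liver X receptors. *Abca1* had 88.3, 94.0 and 97.3 FPKM with control siRNA, the highest control mean of the 30 genes, and 66.3, 67.3 and 66.8 FPKM with *Xbp1* siRNA. The drop to 71.7% of control was far larger than the spread within either condition (log2 fold change −0.48, standard error 0.04, adjusted p = 0.000125). *Stard4*, a soluble sterol carrier, had 4.14, 4.90 and 4.80 FPKM with control siRNA and 6.33, 5.63 and 5.17 FPKM with *Xbp1* siRNA. The libraries did not overlap, but the log2 fold change of 0.30 (95% interval 0.03 to 0.57) did not pass after adjustment (adjusted p = 0.0747). *Abcg1*, a second exporter, was barely expressed, counted at 5, 3 and 6 reads under control siRNA and at 3, 10 and 3 reads under *Xbp1* siRNA. A difference in *Abcg1* was not detectable at this depth, and its sign depended on the pseudocount and on the library left out (log2 fold change −0.42 to 0.21).

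Of the 6 tested genes of acetyl-CoA supply and fatty acid synthesis, *Aacs* and *Acss2* fell (33.3%), 0 rose and 4 did not pass the test. Among all entries tested, 20.2% were lower and 20.2% higher. *Aacs*, which activates acetoacetate in the cytosol for use in lipid synthesis, had 8.85, 9.72 and 8.89 FPKM with control siRNA and 6.07, 6.09 and 6.14 FPKM with *Xbp1* siRNA. The *Xbp1* siRNA libraries were nearly identical and all below the controls, at 66.6% of their mean (log2 fold change −0.58, standard error 0.07, adjusted p = 0.000724). *Acss2*, the cytosolic acetyl-CoA synthetase, had 7.65, 7.91 and 7.09 FPKM with control siRNA and 5.38, 6.29 and 5.87 FPKM with *Xbp1* siRNA (log2 fold change −0.36, adjusted p = 0.016). The call of *Acss2* was lost without control replicate 2 (adjusted p = 0.0569) or *Xbp1* siRNA replicate 1 (0.051). *Acly*, ATP citrate lyase, found under its LOC number, fell from 87.0 ± 1.80 to 75.4 ± 1.25 FPKM (SD, n = 3 each, log2 fold change −0.21, adjusted p = 0.00227).

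*Fasn*, fatty acid synthase, had 42.7, 41.7 and 42.5 FPKM with control siRNA and 43.1, 40.7 and 42.8 FPKM with *Xbp1* siRNA. The conditions overlapped, the log2 fold change was −0.0038 with a 95% interval of −0.10 to 0.09, and its sign turned under quantile normalization (0.0451) and without *Xbp1* siRNA replicate 2 (0.0224) or control replicate 1 (0.0038). *Fasn* stood on 3358, 3080 and 3269 reads under control siRNA and on 3469, 3137 and 3909 reads under *Xbp1* siRNA. *Acaca*, the acetyl-CoA carboxylase that commits carbon to fatty acids, had 13.2 ± 0.303 and 12.6 ± 0.813 FPKM (log2 fold change −0.06, 95% interval −0.22 to 0.10). *Elovl5*, an elongase of polyunsaturated fatty acids, had 73.0 ± 4.88 and 79.9 ± 2.52 FPKM and did not pass (adjusted p = 0.0877), although it did under quantile normalization (adjusted p = 0.0186) and without control replicate 1 (0.0142). *Elovl6*, an elongase of saturated fatty acids, had 4.49 ± 0.414 and 4.89 ± 0.211 FPKM (log2 fold change 0.13, 95% interval −0.12 to 0.37). *Lpin1*, a phosphatidate phosphatase, stood on 18, 10 and 28 reads under control siRNA and on 23, 22 and 28 reads under *Xbp1* siRNA, and no difference was detectable at this depth.

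Other genes of the same pathways, taken from wider lists, were compared in the same fit. Among 23 other genes that control SREBP (its proteases, cofactors, ubiquitin ligases and kinases), 11 rose (47.8%) and 7 fell (30.4%) by adjusted p, with a median log2 fold change of 0.17. For this list and those below, the shares over all entries tested are 20.2% higher and 20.2% lower. The lists were chosen with earlier results of these data known, so their shares are descriptions only. The largest rise was that of *Erlin2*, a membrane protein of the endoplasmic reticulum, from 15.5, 15.2 and 14.9 to 23.5, 25.6 and 22.0 FPKM (adjusted p = 0.000248). Its partner *Erlin1* fell from 45.4, 45.9 and 45.4 to 30.2, 31.7 and 32.2 FPKM (adjusted p = 5.91e-05), so that the ratio of *Erlin2* to *Erlin1* went from 0.333 ± 0.00709 to 0.756 ± 0.0643 (SD, n = 3 each). *Erlin1* was singled out after its values were seen. The largest fall was that of *Fbxw7*, the ubiquitin ligase subunit that marks nuclear SREBP for degradation, from 6.91 ± 0.823 to 4.19 ± 0.241 FPKM (adjusted p = 0.00194).

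Of 9 other mevalonate and sterol genes, 2 rose (22.2%) and 2 fell (22.2%), with a median log2 fold change of 0.03. Only 1 rose with the replicate block, without the intensity trend, and on leaving out replicate 1 or 2 of *Xbp1* siRNA or replicate 1 or 3 of the control. *Lbr*, described above, had the largest fall, and *Nus1*, a subunit of the enzyme that builds dolichol, had the largest rise, from 102 ± 1.99 to 133 ± 1.52 FPKM (log2 fold change 0.37). *Dhdds*, also on this list, had 2 entries and was not tested. Of 21 other genes of fatty acid synthesis, 7 rose (33.3%) and 3 fell (14.3%), with a median of 0.10. This balance was not stable: 4 rose and 5 fell without *Xbp1* siRNA replicate 2, 4 rose without control replicate 2, and 5 fell with the replicate block. Among these *Fads3*, a member of the desaturase family, rose from 8.73 ± 0.664 to 16.1 ± 1.54 FPKM (log2 fold change 0.87, adjusted p = 0.000277), and *Acsl4*, which activates arachidonic acid, fell from 27.9 ± 2.04 to 16.4 ± 1.01 FPKM (log2 fold change −0.76, adjusted p = 0.000179). Of 20 glycerolipid and lipid droplet genes, 5 rose (25%) and 3 fell (15%). Here *Lpin3*, a phosphatidate phosphatase, rose from 1.75 ± 0.552 to 3.31 ± 0.699 FPKM (adjusted p = 0.031), and *Pcyt2*, the regulatory enzyme of phosphatidylethanolamine synthesis, fell from 36.7 ± 0.700 to 23.0 ± 0.553 FPKM (adjusted p = 2.59e-05).

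Of 16 other genes of sterol transport, 9 rose by adjusted p (56.3%, compared with 20.2% of all entries) and 0 fell by limma at an adjusted p under 0.05, while at an unadjusted p under 0.05 the counts were 10 and 1. The median log2 fold change of this list was 0.25. The largest rise was that of *Scarb2*, a lysosomal membrane protein, from 19.8, 20.6 and 20.1 to 30.4, 32.6 and 30.7 FPKM (log2 fold change 0.63, adjusted p = 6.01e-05). This list was chosen with earlier results of these data known. It was described only, with no test of the list as a whole.

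**Figure D4:**
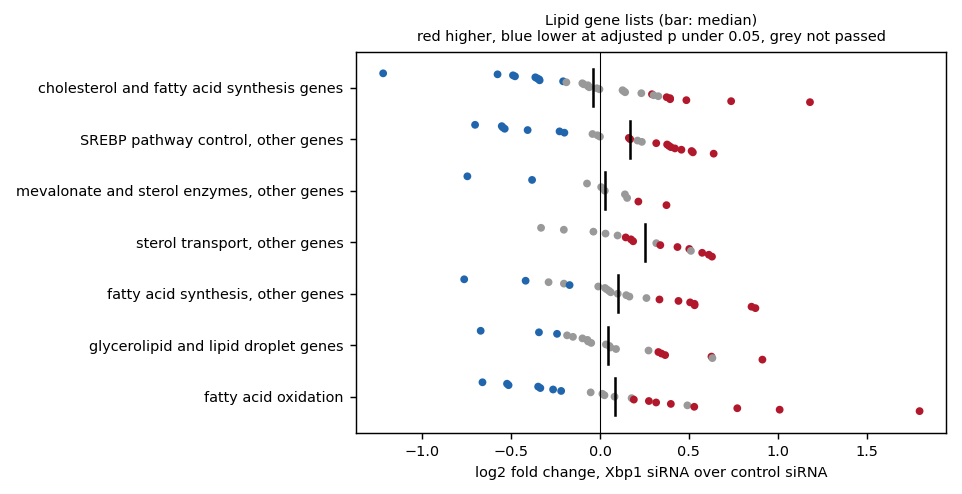
Log2 fold change after *Xbp1* siRNA (x axis) of each tested gene of the 30 genes of cholesterol and fatty acid synthesis and of 6 wider lists (rows), with the median of each list as a black bar. Red genes rose and blue genes fell at an adjusted p under 0.05, and grey genes did not pass. Every list except sterol transport holds genes of both colours, and the medians lie between −0.04 and 0.25.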

How the data were processed

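RNA-Seq libraries of CHO-T cells (3 per condition) were used as deposited. The authors deposited FPKM, 1 library per file, and the submitters' processing notes name HISAT2 2.1.0 and Cuffdiff 2.2.1. The genome build, the annotation and the strand setting of counting are not given in the sources used here, so genes are given without coordinates, and reads of overlapping genes or close copies cannot be told apart. FPKM are not counts, so the DESeq2 test of the study's methods was not run.

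The log2 of the deposited FPKM, after adding 0.1, was fitted in limma 3.58.1 under R 4.3.3 (lmFit, eBayes with an intensity trend) over entries with a mean FPKM of at least 0.1, with Benjamini-Hochberg adjustment over all 14361. The limits were an adjusted p of 0.05 and, as in the study's methods, an absolute log2 fold change of 1. Low FPKM values fell on whole multiples of the value of 1 read. Of 1874 low entries, 69.1% were whole in all libraries within 0.008 reads, and read numbers were obtained in this way for 16 of the 30 genes. They cover counting error only. Between libraries of 1 condition, the correlation of log2 values across entries was between 0.966 and 0.972.

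The genes, the lists and the tests were chosen with earlier results of these data known. Genes past both limits, and the largest change in each role and list, are described in full. The values of 1 gene of the wider lists are not reported here, and it is left out of their counts. Absent symbols were looked up in the RefSeq gene table of the assembly CriGri-PICRH-1.0. A search for promoter motifs was planned and was not run, since promoter sequences were not used here. Alternatives were pseudocounts of 1 and 0.01, other filters, median-ratio scaling, quantile normalization, eBayes without trend, a replicate block, a fold limit of 0.5 and leaving out each library. Median-ratio scaling hardly altered the values (median log2 fold change over all entries 0.0045, beside 0.0063), so it is a weak check. Figures were drawn with Python 3.11.15 and matplotlib 3.10.9.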

Additional observations from a re-analysis of the deposited data

How the results depend on the processing

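Of 502 values of single genes under the alternatives, 467 kept their direction and their side of the threshold, 23 lost the call, 2 gained it and 10 turned in sign. The lost calls were those of *Mvk*, *Pmvk*, *Lss*, *Ebp* and *Acss2*, and the gained ones that of *Elovl5*. The count of genes lower by adjusted p was 9 and lay between 5 and 9 with 1 library left out, with 5 without control replicate 2. The count past both limits went from 1 higher to 0 with a pseudocount of 1, where *Tm7sf2* is under the fold limit, and from 1 to 2 in each direction with a fold limit of 0.5, by construction.

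The median log2 fold change of the 30 genes was −0.0645 when entries under a mean of 1 FPKM were left out, −0.0648 with a pseudocount of 0.01, −0.0301 with a pseudocount of 1, and between −0.0282 and −0.0063 with 1 library left out. Of the wider lists, the median of sterol transport was 0.18 with a filter at 1, 0.17 with a pseudocount of 1 and 0.19 to 0.27 with 1 library left out. That of fatty acid oxidation was 0.0528 with a filter at 1, 0.13 under quantile normalization and 0.0241 to 0.12 with 1 library left out. That of other sterol enzymes was 0.0830 with no filter, 0.0894 under quantile normalization and 0.0021 to 0.0619 with 1 library left out, the highest without control replicate 1. That of SREBP control was 0.22 under quantile normalization and 0.15 to 0.20 with 1 library left out, that of glycerolipid genes 0.085 and 0.0018 to 0.0554, and that of fatty acid synthesis 0.0779 to 0.16 with 1 library left out. The cause was not tested.

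Signs turned only for genes with changes near 0. *Abcg1* went to 0.0133 with a pseudocount of 1 and lay between −0.42 and 0.21 with 1 library left out, *Fasn* went to 0.0451 under quantile normalization and lay between −0.0190 and 0.0224, and *Mvd* lay between −0.22 and 0.0073.

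The labels give both conditions the replicate numbers 1 to 3, but deviations of libraries with the same number correlated at −0.0289, −0.0265 and −0.0124, so the numbers were not taken as pairs. With the replicate block, 7 genes rose and 8 fell by adjusted p, with *Mvk* lost at −0.34 (adjusted p = 0.0628).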

Other observations

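Genes of fatty acid oxidation, the opposing pathway, were also compared. Of 21 tested genes, 8 rose (38.1%) and 7 fell (33.3%) by adjusted p, where all entries gave 20.2% in each direction. Without *Xbp1* siRNA replicate 3, 4 fell. The 2 past the fold limit both belong to the carnitine palmitoyltransferase family. *Cpt1a*, which admits long-chain fatty acids to mitochondria, had 4.59, 4.58 and 4.60 FPKM with control siRNA and 8.71, 9.78 and 9.59 FPKM with *Xbp1* siRNA (log2 fold change 1.01, 95% interval 0.82 to 1.20, adjusted p = 7.32e-05). It stood at the fold limit, and fell short of it with a pseudocount of 1 (0.89), under quantile normalization (0.97) and without *Xbp1* siRNA replicate 2 (0.98) or 3 (0.99), all with an adjusted p under 0.05. *Cpt1c*, the form best known from neurons, had 1.41, 1.21 and 1.24 FPKM with control siRNA and 4.57, 5.04 and 4.55 FPKM with *Xbp1* siRNA (log2 fold change 1.80, standard error 0.13, adjusted p = 4.17e-05). In both genes every *Xbp1* siRNA library was above every control library. The largest fall was that of *Echs1*, an enoyl-CoA hydratase of mitochondria, from 24.7, 32.1 and 25.6 to 20.1, 15.2 and 16.8 FPKM (log2 fold change −0.66, adjusted p = 0.0055).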
